A study of Mus musculus with 9 samples.

Results

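Chemokines and cytokines made by fibroblasts, together with inhibitors that NF-kB induces against itself, were followed as a group of 9 genes. The members were the rows with the symbols Ccl2, Ccl7, Cxcl1, Cxcl5, Cxcl12, Il6, Csf1, Nfkbia and Tnfaip3, picked by name among 28965 genes in all. All 9 members were present, and all 9 passed the filter on low values, which left 15002 genes for testing. RNA came from 3T3-L1 cells, a wild-type mouse line of fibroblast-like adipocyte precursors, and the labels do not say whether the replicates were separate cultures, so the p-values measure only the spread between these samples, which may be technical. Confluent cells of every group received insulin at 0.1 µg/mL, isobutylmethylxanthine (IBMX) at 30 µg/mL and dexamethasone at 0.1 µg/mL for 24 h. The OA_T0 group (3 libraries) also received albumin-bound oleic acid at 100 µM and 5 µM T0901317, which activates liver X receptors (LXR). The OA group (3 libraries) received the oleic acid without the agonist, and the MDI group (3 libraries) received the albumin vehicle. No group had the agonist without oleic acid, no group lacked the cocktail, and dexamethasone, a glucocorticoid, was therefore present throughout.

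NF-kB is a family of transcription factors held in the cytoplasm by inhibitor proteins, released when a kinase complex marks the inhibitor for destruction. Its targets include chemokines, which attract leukocytes, and also the genes of its own inhibitors, which close a negative feedback loop. Preadipocytes and fibroblasts secrete such chemokines in fat tissue, and glucocorticoids and liganded LXR are both known to restrain parts of this programme in other cells, chiefly macrophages.

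Promoters are shown for the 4 members in which a change passed the test and the window held a match to the NF-kB consensus. RefSeq entries (build GRCm38.p6, 250 bases before to 50 after the start of the gene) were found for 6 of the 9 members, and Ccl2, Ccl7 and Cxcl5 had none. Each is printed along the gene's own strand, with capitals for matches to the NF-kB consensus on either strand and, in Il6, also for a match to the AP-1 motif (TGANTCA).
Cxcl1, chr5:90890995-90891294, plus strand: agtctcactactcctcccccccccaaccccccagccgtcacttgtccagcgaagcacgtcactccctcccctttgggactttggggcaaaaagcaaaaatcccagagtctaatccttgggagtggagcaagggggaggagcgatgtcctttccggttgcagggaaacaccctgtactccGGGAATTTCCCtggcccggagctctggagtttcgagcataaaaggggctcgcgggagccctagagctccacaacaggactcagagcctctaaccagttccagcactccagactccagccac
Il6, chr5:30012864-30013163, plus strand: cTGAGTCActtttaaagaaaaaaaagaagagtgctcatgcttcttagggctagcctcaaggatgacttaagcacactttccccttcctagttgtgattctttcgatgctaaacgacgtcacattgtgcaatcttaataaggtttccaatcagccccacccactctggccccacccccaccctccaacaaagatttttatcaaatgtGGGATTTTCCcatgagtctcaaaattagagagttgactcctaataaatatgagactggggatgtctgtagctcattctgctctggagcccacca
Csf1, chr3:107760420-107760719, minus strand: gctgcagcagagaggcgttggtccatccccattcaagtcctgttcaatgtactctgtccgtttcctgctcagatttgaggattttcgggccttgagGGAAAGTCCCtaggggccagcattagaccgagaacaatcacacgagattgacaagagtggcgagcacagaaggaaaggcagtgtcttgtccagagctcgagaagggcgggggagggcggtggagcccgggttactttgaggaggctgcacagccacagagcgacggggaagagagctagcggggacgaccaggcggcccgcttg
Nfkbia, chr12:55492598-55492897, minus strand: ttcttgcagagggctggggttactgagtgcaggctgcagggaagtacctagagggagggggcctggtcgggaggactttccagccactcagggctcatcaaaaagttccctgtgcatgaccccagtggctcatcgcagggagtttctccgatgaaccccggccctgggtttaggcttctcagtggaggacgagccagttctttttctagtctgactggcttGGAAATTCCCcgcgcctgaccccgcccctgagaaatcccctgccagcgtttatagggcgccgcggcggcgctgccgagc
In Cxcl1 the consensus matched on both strands in registers offset by a single base, so the capitals cover a pair of overlapping matches. The Il6 match lay at bases -44 to -35 from the gene's start, and the Nfkbia match at bases -29 to -20 on the opposite strand. Tnfaip3 also held the consensus in 1 of its entries, and Cxcl12 did not hold it. Of the 6 members with an entry, 5 thus had a match, against 8.46% of the 32851 RefSeq promoter windows of the same length. The members were picked as genes of the NF-kB programme, so a share above that of all windows was built into the choice. A member also counted if any of its entries matched (7 entries in all), whereas the share over all windows counts single windows. The AP-1 motif was found in 2 of the 6, Il6 and Tnfaip3, against 7.81% of all windows. The cyclic AMP response element (TGACGTCA, both strands) was found in 0 of the 6, against 1.79%. The letters TATAAA of the TATA box (gene strand only, at any position in the window) were found in 1, against 8.32%. That match lay in Tnfaip3 at bases -225 to -220, and its position was not used to judge whether it is a TATA box. A match describes letters only and was not tested for binding.

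Estimated depths were 18.0 M to 59.9 M fragments per library, with a median of 26.3 M. The deepest by far was MDI library 1 at 59.9 M, and the next was OA_T0 library 2 at 29.3 M. Calls lost without MDI library 1 are given below, and the part of its depth in them was not tested. Taken as the floor of detection, 3 fragments were worth 1.35 to 4.62 deposited units. Such floors cover counting error only. The fewest fragments estimated for a member were 143, for Tnfaip3 in OA_T0 library 3, where its value was 220.3. A gene annotated as ribosomal RNA, CT010467.1, took 0.649% of the deposited total in OA library 1 and 3.06% in OA_T0 library 3, against 4.40% to 5.96% in the other 7 libraries. Counts of called genes that differ by over 1.5 times without both libraries are given below. All 8 fibroblast and preadipocyte markers were high, with summed values of 283415 to 330709 in OA_T0, 322774 to 356361 in OA and 305496 to 331075 in MDI. Single markers moved within this sum. Pdgfra averaged 11816 in OA_T0, 18401 in OA and 13276 in MDI. Thy1, Col1a1, Col1a2 and Col3a1 also had their highest group mean in OA, whereas Pdgfrb, Dlk1 and Vim had their lowest there. The 9 macrophage markers summed to 104 to 153 in OA_T0, 112 to 142 in OA and 101 to 134 in MDI, with Adgre1 at 0 in all 9 libraries. Of these markers 3 reached the filter, Cd14, Cd68 and Lyz2. Group means in OA_T0, OA and MDI were 58.5, 80.5 and 69.3 for Cd14 and 29.6, 16.5 and 17.2 for Cd68. For Lyz2 they were 26.2, 18.6 and 16.5 in the same order. Of 5 endothelial markers, 0 reached the filter. Of the 5 adipocyte markers present, only Fabp4 reached it, and their summed values were 601 to 746 in OA_T0, 1838 to 2389 in OA and 298 to 463 in MDI. Nearly all of this sum was Fabp4, which averaged 661 in OA_T0, 2024 in OA and 374 in MDI, and no other of these markers exceeded 6.76 in any library. Adipoq averaged 1.70 in OA_T0, 1.15 in OA and 3.67 in MDI, but was at or under the floor of detection in 7 of the 9 libraries. Its group means therefore give no order of the groups. Fabp4 thus moved with the groups, as did the group means of Pdgfra, and the part of either in the results below was not tested. In RNA from a whole culture, fewer cells expressing a gene and less RNA per cell cannot be told apart.

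The members spanned a wide range of levels. Deposited normalised counts were divided by the length of a gene's merged exons, so that genes could be set side by side. Merged exons cover all annotated transcripts of a gene, such as 8.176 kb for Cxcl12 and 0.801 kb for Ccl7. Which transcripts these cells made was not tested, so the order of members per kb depends on that choice of length. On this per-kb scale Cxcl12, which retains blood progenitors through its receptor CXCR4, was at 2503 ± 228 in OA_T0, 3131 ± 197 in OA and 2374 ± 297 in MDI (SD, n = 3 each). Ccl7 was at 2106 ± 12.2 in OA_T0, 2552 ± 221 in OA and 2467 ± 79.7 in MDI per kb. In MDI libraries the levels per kb of Cxcl12 and Ccl7 did not differ beyond their spread. Csf1, Ccl2, Cxcl1 and Cxcl5 followed, with group means per kb between 847 and 1753. In OA libraries Ccl2 at 1311 ± 153 and Csf1 at 1308 ± 45.1 per kb could not be ordered. Nfkbia came next, with group means per kb of 493 in OA_T0, 707 in OA and 506 in MDI. Il6 averaged 186 ± 44.6 in OA_T0, 100.2 ± 22.4 in OA and 167 ± 24.98 in MDI per kb. Tnfaip3 was the lowest member, at 27.3 ± 5.57 in OA_T0, 36.2 ± 2.37 in OA and 31.1 ± 3.72 in MDI per kb.

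**Figure D1:**
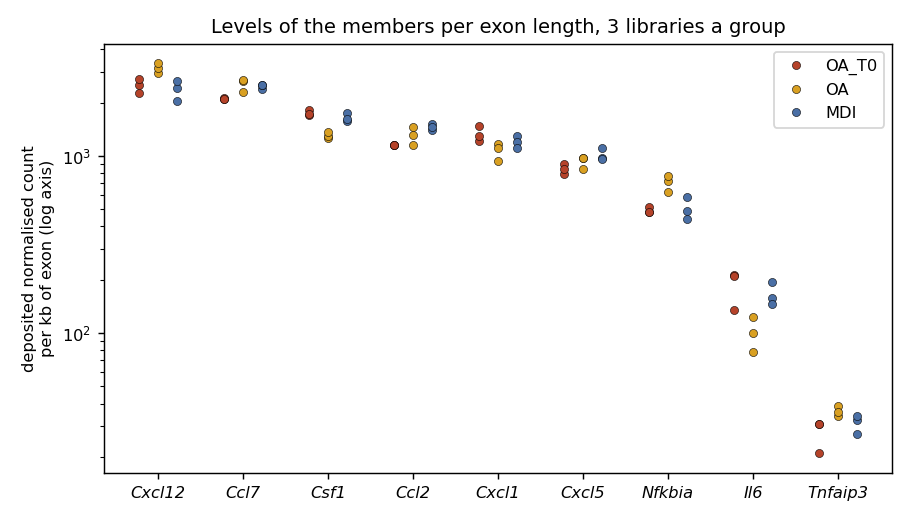
Deposited normalised counts per kb of merged exon (log axis) for the 9 members, with 1 point per library and groups coloured. Cxcl12 and Ccl7 stand highest and Tnfaip3 lowest, with group means of 27.3 to 36.2.

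OA set against MDI shows the effect of oleic acid on top of the cocktail. Il6 and Csf1 fell with oleic acid, while Cxcl12 and Nfkbia rose. The monocyte and neutrophil chemokines Ccl2, Ccl7, Cxcl1 and Cxcl5 did not pass the test, and neither did Tnfaip3. In all, 2 of 9 members were higher and 2 lower at an adjusted p below 0.05 by limma, where 6.79% of all tested genes were called, 3.43% higher and 3.36% lower. Among the 10013 tested genes at or above the lowest member's mean level, 9.08% were called. The groups did not overlap in 4 members, against 26.1% of all tested genes. The members were chosen with earlier results of these data known. A share above that of all genes, here or below, may therefore be built into the choice.

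Il6, a cytokine of the acute phase that acts through its own receptor and the shared subunit Il6st, had deposited normalised counts of 299, 242 and 189.7 in OA libraries, against 473, 385 and 356 in MDI libraries. All OA libraries lay below all MDI libraries. It was 1.68-fold lower in OA (log2 fold change -0.75, SE 0.18, limma adjusted p = 0.0221). Csf1, the growth factor of macrophages, stood at 6709.7, 6841 and 7172 in OA, against 8282, 9286 and 8597 in MDI. Its groups were also fully apart, at 1.26-fold lower in OA (log2 fold change -0.34, SE 0.06, limma adjusted p = 0.00281). Nfkbia encodes the inhibitor IκBα, which binds NF-kB in the cytoplasm and is quickly rebuilt after NF-kB has been active. It stood at 1164, 1002 and 1246 in OA, against 707, 792 and 943 in MDI. The lowest OA library was above the highest MDI library, and the change was 1.40-fold (log2 fold change 0.49, SE 0.10, limma adjusted p = 0.00887). Cxcl12 had 24003, 25561 and 27231 in OA, against 16805, 19825.5 and 21599.5 in MDI. Its groups did not overlap, and it was 1.32-fold higher in OA (log2 fold change 0.41, SE 0.09, limma adjusted p = 0.0146).

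The other 5 members overlapped between OA and MDI. Tnfaip3, a ubiquitin-editing enzyme that shuts down signalling to NF-kB, stood at 279.6, 246 and 259.9 in OA, against 195, 233 and 247 in MDI. The lowest OA library and the highest MDI library were nearly equal, and limma gave a log2 fold change of 0.22 (95% interval -0.09 to 0.54, adjusted p = 0.431). Ccl2, a monocyte attractant, had 1663, 1315 and 1499 in OA, against 1595, 1731 and 1658.5 in MDI. Its OA libraries were spread more widely than its MDI libraries, and limma gave a log2 fold change of -0.16 (95% interval -0.32 to 0.00, adjusted p = 0.241). Intervals for the log2 fold changes of the remaining chemokines were -0.10 to 0.19 for Ccl7, -0.36 to 0.02 for Cxcl1 and -0.29 to 0.04 for Cxcl5.

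Of these 4 calls, that of Csf1 passed with any 1 library left out (limma adjusted p up to 0.0275). Without MDI library 1 the higher members numbered 0 and the lower 1, with adjusted p = 0.0590 for Cxcl12, 0.0512 for Nfkbia and 0.118 for Il6. Without MDI library 2 they again numbered 0 and 1, with adjusted p = 0.0556 for Cxcl12, 0.0552 for Nfkbia and 0.0797 for Il6. The lower members numbered 1 without OA library 2 (Il6 adjusted p = 0.0510), and the higher and lower 1 each without OA library 3 (Cxcl12 0.0584, Il6 0.0925). With no filter on low values the calls of Cxcl12 (0.0862), Nfkbia (0.0591) and Il6 (0.125) were lost, and with robust variance estimates that of Il6 (0.0652).

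**Figure D2:**
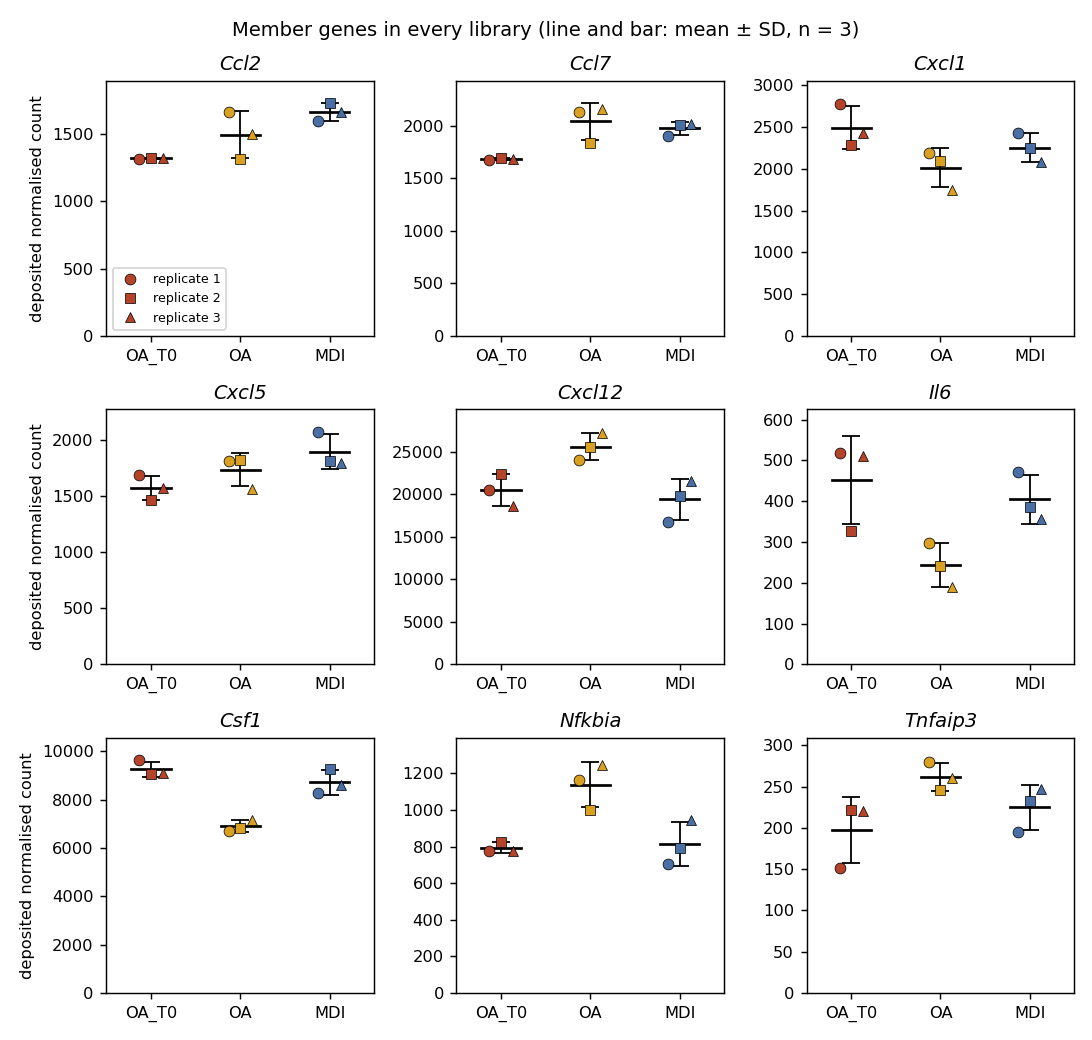
Deposited normalised counts of the 9 members in each library of OA_T0, OA and MDI, with the mean and SD of 3 libraries and axes from 0. Il6 and Csf1 are lowest in OA, Cxcl12 and Nfkbia highest in OA, and Ccl2 in OA_T0 sits at 1316 to 1321.

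OA_T0 set against OA addresses the LXR agonist, with oleic acid in both media. With the agonist Il6, Csf1 and the neutrophil attractant Cxcl1 rose, while Nfkbia, Cxcl12 and the monocyte attractant Ccl7 fell. Of 9 members, 3 were higher and 3 lower by limma, where 15.1% of all tested genes were called, 8.27% higher and 6.84% lower. Among tested genes at or above the lowest member's mean level, 19.5% were called. The groups did not overlap in 7 members, against 32.1% of all tested genes. The OA libraries serve in both this comparison and the one with MDI, so the fold changes of a gene in them are not independent.

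Il6 had deposited normalised counts of 518, 327 and 510.0 in OA_T0, against the 299, 242 and 189.7 of OA. OA_T0 library 2 was well below the other OA_T0 libraries but above every OA library. The rise was 1.84-fold (log2 fold change 0.88, SE 0.18, limma adjusted p = 0.00433), the largest in size among the members in this comparison. Csf1 stood at 9624, 9058 and 9087 in OA_T0, well clear of the 6709.7 to 7172 of OA. It rose 1.34-fold (log2 fold change 0.42, SE 0.06, limma adjusted p = 1.99e-04). Cxcl1, a neutrophil attractant, had 2773, 2282 and 2425 in OA_T0, against 2194, 2088 and 1749 in OA. Its groups were apart by a narrow margin, with a log2 fold change of 0.31 (SE 0.09, limma adjusted p = 0.0298). That call was lost after quantile normalisation (adjusted p = 0.0503) and with equal library totals (0.0730).

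Nfkbia stood at 776, 827 and 777 in OA_T0, against 1164, 1002 and 1246 in OA. The OA_T0 libraries were close together and all below OA, at 1.43-fold lower (log2 fold change -0.51, SE 0.10, limma adjusted p = 0.00308). Cxcl12 had 20473, 22333 and 18598 in OA_T0, against 24003, 25561 and 27231 in OA. It was 1.25-fold lower without overlap (log2 fold change -0.32, SE 0.09, limma adjusted p = 0.0262). Ccl7, which shares the receptor CCR2 with Ccl2, had 1679, 1698 and 1684 in OA_T0, against 2131, 1841 and 2161 in OA. It was 1.21-fold lower, with all OA_T0 libraries below OA (log2 fold change -0.27, SE 0.07, limma adjusted p = 0.0118).

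Tnfaip3 had 151, 221 and 220.3 in OA_T0, against 279.6, 246 and 259.9 in OA. The groups did not overlap, but limma gave adjusted p = 0.0668 at a log2 fold change of -0.42 (95% interval -0.74 to -0.11). It passed without OA_T0 library 2 (adjusted p = 0.0411) or OA_T0 library 3 (0.0455). Ccl2 stood at 1316, 1321 and 1320.4 in OA_T0, against 1663, 1315 and 1499 in OA, and overlapped through OA library 2. Its adjusted p by limma was 0.145, and 0.0335 without OA library 2. Cxcl5, another neutrophil attractant, had 1686, 1471 and 1576 in OA_T0, against 1818, 1826 and 1569 in OA, with overlap and a limma adjusted p = 0.263 (95% interval of the log2 fold change -0.31 to 0.03).

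The calls of Il6, Csf1 and Nfkbia in this comparison passed with any 1 library left out, at limma adjusted p up to 0.0356, 0.00325 and 0.0214. The call of Cxcl12 was lost without OA library 2 (0.0652), OA library 3 (0.0717), OA_T0 library 1 (0.0909) or OA_T0 library 3 (0.0942). Ccl7 was not called without OA library 1 (0.0702) or OA_T0 library 1 (0.0550), nor Cxcl1 without OA library 3 (0.0958) or OA_T0 library 1 (0.165). The lower members thus numbered 1 without OA_T0 library 1. Without both libraries low in ribosomal RNA, OA library 1 and OA_T0 library 3, the higher members numbered 3 and the lower 1, with adjusted p = 0.121 for Ccl7 and 0.106 for Cxcl12. With no filter the calls of Cxcl1 (0.111) and Cxcl12 (0.104) were lost.

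**Figure D3:**
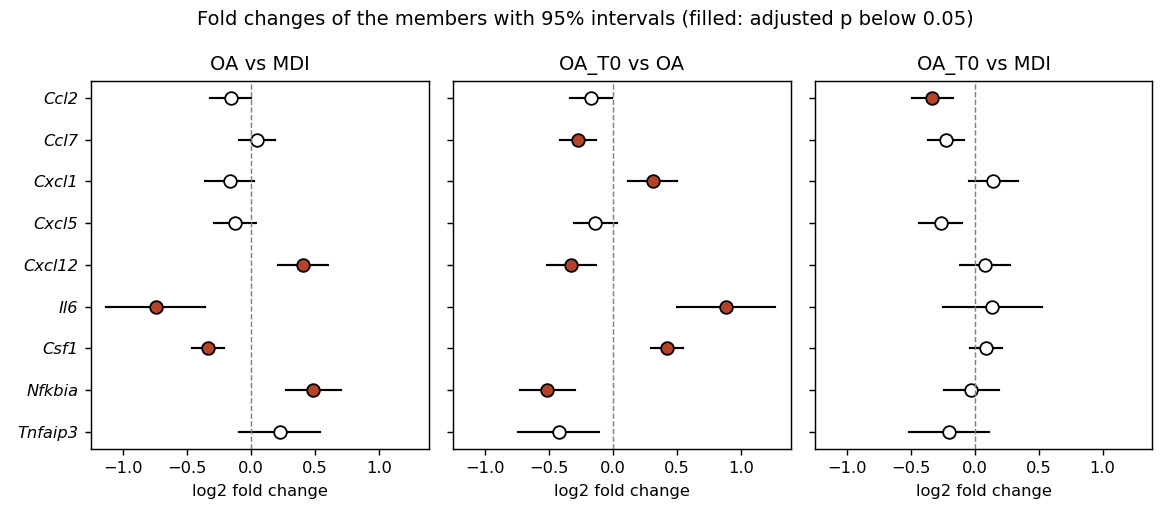
Log2 fold changes of the members in the 3 comparisons, with 95% intervals from limma; filled points had an adjusted p below 0.05. In OA vs MDI 4 points are filled, in OA_T0 vs OA 6 and in OA_T0 vs MDI 1.

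The comparison of OA_T0 with MDI sets the combination against vehicle. Ccl2 fell, and the other 8 members did not pass the test. By limma 0 members were higher and 1 lower (0 and 3 at an unadjusted p below 0.05), where 1.25% and 1.36% of all tested genes were called in those directions and 2.61% in either. Among tested genes at or above the lowest member's mean level, 3.3% were called. The groups did not overlap in 3 members, Ccl2, Ccl7 and Cxcl5, against 23.5% of all tested genes.

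Ccl2 had 1316, 1321 and 1320.4 in OA_T0, against 1595, 1731 and 1658.5 in MDI, and was 1.26-fold lower (log2 fold change -0.33, SE 0.08, limma adjusted p = 0.0313). Its spread in OA_T0, a coefficient of variation of 0.206%, was smaller than the 3.01% that counting alone would give at the estimated depth. In Ccl7 the same held in OA_T0, at 0.581% against 2.66%. The Ccl2 call was lost without MDI library 1 (adjusted p = 0.0784), MDI library 2 (0.161), MDI library 3 (0.0523), OA_T0 library 1 (0.143) or OA_T0 library 2 (0.0636), and with no filter (0.135). Ccl7 had 1679, 1698 and 1684 in OA_T0, against 1903, 2008 and 2018 in MDI. It lay below MDI in every library, with limma adjusted p = 0.0853, and passed without OA library 2 (0.0463) or after quantile normalisation (0.0335), so that the lower members then numbered 2. Cxcl5 had 1686, 1471 and 1576 in OA_T0, against 2076, 1815 and 1799 in MDI, likewise apart, with adjusted p = 0.0945.

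For the 4 members called in both other comparisons, the log2 fold changes between OA_T0 and MDI had 95% intervals that included 0. They ran from -0.25 to 0.52 for Il6, from -0.04 to 0.21 for Csf1, from -0.24 to 0.19 for Nfkbia and from -0.11 to 0.27 for Cxcl12. Tnfaip3 had an interval of -0.52 to 0.11 and Cxcl1 one of -0.05 to 0.34.

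Other genes of the same pathway were counted in 7 lists, which were also chosen with earlier results of these data known. Of all tested genes, 6.79% were called in OA vs MDI, 15.1% in OA_T0 vs OA and 2.61% in OA_T0 vs MDI. Among tested genes at or above the lowest member's mean level, the shares were 9.08%, 19.5% and 3.3% in the same order. Among the 22 other chemokines present, 8 reached the filter, and 3 (Ccl3, Ccl4 and Cxcl14) were listed at 0 in all 9 libraries. Cxcl2 and Cxcl3, close relatives of Cxcl1, did not exceed 2.24 and 2.18 deposited units in any library, where Cxcl1 was at 1749 or more. By limma 0 of the 8 passed in OA vs MDI (0 higher and 1 lower at an unadjusted p below 0.05; 1 lower without OA_T0 library 2), and 1 was lower in OA_T0 vs OA. That was Ccl11, an attractor of eosinophils, which averaged 9.48 ± 6.61 in OA_T0 and 30.5 ± 2.16 in OA (SD, n = 3 each), with adjusted p = 0.00940. It was lost without OA_T0 library 1 (0.0525), whereas the lower chemokines numbered 2 without OA library 3 or OA_T0 library 2. In OA_T0 vs MDI 0 passed (0 and 3 unadjusted), and the lower ones numbered 1 without OA_T0 library 2 and 2 without OA_T0 library 3.

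Of the 16 other cytokines, Tnf, Il1b and Osm were listed at 0 in every library, and 8 reached the filter. In OA vs MDI 0 were higher and 2 lower (0 and 6 at an unadjusted p below 0.05), with a list median log2 fold change of -0.57, against 0.01 over all tested genes. Of all tested genes, 6.79% were called in this comparison and 15.1% in OA_T0 vs OA. Lif, a cytokine that signals through Il6st as Il6 does, averaged 102 ± 10.4 in OA and 182 ± 21.2 in MDI (limma adjusted p = 0.0107, and 0.0752 without MDI library 2, when 1 was lower). Il1rn, an antagonist of interleukin-1, averaged 1832 ± 58.8 in OA and 2634 ± 177 in MDI (adjusted p = 9.18e-05). In OA_T0 vs OA 3 were higher and 0 lower (4 and 0 unadjusted): Lif at 213 ± 53.8 in OA_T0, Il1rn at 2244 ± 41.0 and Clcf1 at 602 ± 20.0, against 482 ± 59.1 for Clcf1 in OA. Their limma adjusted p-values were 0.00126, 0.00461 and 0.0266, and Clcf1 was lost without OA library 1 (0.0774), OA library 3 (0.0783) or OA_T0 library 1 (0.111). In OA_T0 vs MDI 0 passed (0 and 1 unadjusted), with 1 lower without MDI library 1.

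Some receptors for the members were at or near 0 in these cells and others were not. Ccr2, the receptor of Ccl2 and Ccl7, and Cxcr4, that of Cxcl12, were listed at 0 in all 9 libraries, and Cxcr2, that of Cxcl1 and Cxcl5, did not exceed 1.54 deposited units. Ackr3, the other receptor of Cxcl12, averaged 228 ± 44.9 in OA_T0, 210.5 ± 21.2 in OA and 241 ± 34.8 in MDI (SD, n = 3 each) and passed in 0 of the 3 comparisons. Csf1r, the receptor of Csf1, averaged 7.75 over the 9 libraries. Il6ra and Il6st, the Il6 receptor and its shared subunit, averaged 206 and 16036.5. Of 13 receptors tested, 1 was higher and 3 lower in OA vs MDI, where 6.79% of all tested genes were called. In OA_T0 vs OA 1 was higher and 5 lower, where 15.1% of all tested genes were called. Tnfrsf1b, a receptor for tumour necrosis factor, averaged 903 ± 60.5 in OA and 688 ± 15.8 in MDI (limma adjusted p = 0.00503). In OA_T0 it averaged 599 ± 28.0, lower than in OA (8.36e-05). Il1rap, a subunit of the interleukin-1 receptor, averaged 1535 ± 124 in OA and 1998 ± 49.0 in MDI (0.00328), and 1998 ± 114 in OA_T0, higher than in OA (0.00167). Il6ra averaged 164 ± 40.4 in OA_T0 and 252 ± 27.5 in OA (0.0114, and 0.0660 without OA_T0 library 1), and Tlr2, a receptor of microbial lipids, 407 ± 50.9 and 517 ± 44.9 in the same order (0.0299). The lower receptors in OA_T0 vs OA numbered 2 without OA library 1, 3 without OA library 2, 1 without OA_T0 library 1 and 2 without OA_T0 library 3. The Tlr2 call was among those lost (0.148, 0.0557, 0.156 and 0.0680). Tlr3, a receptor of double-stranded RNA, averaged 640 ± 80.3 in OA and 892 ± 50.8 in MDI (0.00888), and Osmr, the oncostatin M receptor, 8140 ± 487 and 9715 ± 672 in the same order (0.0362). Without MDI library 2 the lower receptors in OA vs MDI numbered 1, with 0.0649 for Tlr3 and 0.154 for Osmr, and Osmr was also lost without MDI library 1 (0.135), OA library 2 (0.0844), OA library 3 (0.119) or OA_T0 library 1 (0.0607). In OA_T0 vs MDI Tlr3 was the 1 receptor lower, at 565 ± 65.4 in OA_T0 (0.00190), with 0 higher (0 and 3 unadjusted).

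Of 22 NF-kB subunits and signalling genes, all tested, 0 passed in OA vs MDI by limma (0 higher and 1 lower at an unadjusted p below 0.05). In OA_T0 vs OA 0 were higher and 2 lower (1 and 4 unadjusted). Of all tested genes, 6.79% were called in OA vs MDI, 15.1% in OA_T0 vs OA and 2.61% in OA_T0 vs MDI. Map3k14, the kinase of the non-canonical branch, averaged 829 ± 136 in OA_T0 and 1134 ± 66.5 in OA (adjusted p = 0.00404). Myd88, an adaptor of Toll-like receptors, averaged 1046 ± 101 in OA_T0, 1245 ± 102 in OA and 1323 ± 11.8 in MDI, and was lower in OA_T0 than in OA (0.0399) and than in MDI (0.0297). The call against OA was lost without MDI library 1 (0.0505), MDI library 2 (0.0608), OA library 1 (0.197), OA library 2 (0.0716), OA_T0 library 1 (0.139) or OA_T0 library 2 (0.120), which left 1 lower gene; without the last of these 1 gene was higher. The call against MDI, the 1 of the list, was lost without MDI library 1 (0.117), MDI library 2 (0.112), OA_T0 library 1 (0.147) or OA_T0 library 2 (0.0852).

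Among 15 other NF-kB feedback genes tested, 0 passed in OA vs MDI (1 higher and 2 lower at an unadjusted p below 0.05; 1 higher without MDI library 3) and 0 in OA_T0 vs MDI (2 and 2 unadjusted) by limma. In OA_T0 vs OA 1 was higher and 2 lower, where 15.1% of all tested genes were called. Among tested genes at or above the lowest member's mean level, 19.5% were called. Zfp36, which promotes decay of cytokine messages, averaged 946 ± 19.3 in OA_T0 and 786 ± 26.7 in OA (adjusted p = 0.0316). Tnip1, a partner of Tnfaip3, averaged 760.1 ± 94.4 in OA_T0 and 978 ± 124 in OA (0.0323), and Birc3, a ubiquitin ligase at the tumour necrosis factor receptor, 617 ± 58.8 and 764 ± 41.2 in the same order (0.0478). None of the 3 calls held without OA library 1 (0.124 for Zfp36, 0.0717 for Tnip1, 0.165 for Birc3), OA_T0 library 1 (0.121, 0.162 and 0.137) or OA_T0 library 3 (0.0669, 0.0694 and 0.150). Zfp36 was also lost without OA library 2 (0.0789), Tnip1 without OA library 3 (0.105) and Birc3 without MDI library 2 (0.0707), OA library 2 (0.0618) or OA library 3 (0.0856). Without OA_T0 library 2 the list had 2 higher and 4 lower.

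Of 14 other NF-kB targets tested, 2 were higher and 4 lower in OA vs MDI, where 6.79% of all tested genes were called. In OA_T0 vs OA 6 were higher and 5 lower, where 15.1% of all tested genes were called. The changes in OA_T0 vs OA went both ways, with a list median log2 fold change of -0.007, against -0.002 over all tested genes. Mmp3, stromelysin, averaged 38.2 ± 6.96 in OA_T0, 149 ± 12.0 in OA and 47.8 ± 4.77 in MDI; it was higher in OA than in MDI (limma adjusted p = 9.20e-05) and lower in OA_T0 than in OA (7.06e-06). Ptges, a prostaglandin E synthase, was higher in OA at 2442 ± 238, against 1813 ± 188 in MDI (0.00512). Lcn2, which binds bacterial siderophores, averaged 2117 ± 75.5 in OA_T0, 1468 ± 127 in OA and 1944 ± 200.5 in MDI, lower in OA than in MDI (0.00689) and higher in OA_T0 than in OA (4.11e-04). Bcl2l1, a survival factor, averaged 3308 ± 222 in OA_T0 and 2420.5 ± 173 in OA (8.77e-04). The lower targets in OA vs MDI numbered 2 without MDI library 2 or OA library 2. In OA_T0 vs MDI 0 were higher and 2 lower (1 and 4 unadjusted), namely C3, complement component C3, at 2288 ± 203 in OA_T0 and 3410.0 ± 458 in MDI (0.00201), and Mmp9, a gelatinase, at 679 ± 75.9 and 885 ± 57.2 in the same order (0.0269). Mmp9 was lost, leaving 1, without MDI library 1 (0.0762), MDI library 2 (0.0842), MDI library 3 (0.0711), OA_T0 library 1 (0.169) or OA_T0 library 2 (0.0741), and without the last 1 target was higher.

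Because dexamethasone was in every medium, 8 genes induced by glucocorticoids were counted as well. By limma 1 was higher and 2 lower in OA vs MDI, where 6.79% of all tested genes were called. In OA_T0 vs OA 4 were higher and 1 lower, where 15.1% of all tested genes were called. Sgk1, a kinase, averaged 3615 ± 172 in OA_T0, 2456 ± 69.1 in OA and 3262 ± 197 in MDI, lower in OA than in MDI (adjusted p = 7.71e-04) and higher in OA_T0 than in OA (1.96e-05). Tsc22d3, an inhibitor of inflammatory transcription, averaged 3395 ± 150 in OA_T0, 2802 ± 157 in OA and 3429 ± 267 in MDI (0.0171 and 0.0117 in the same comparisons). Fkbp5, a co-chaperone of the receptor, averaged 9886 ± 439 in OA and 8454 ± 324 in MDI (0.0253). Ddit4 averaged 2048 ± 75.5 in OA_T0 and 1519 ± 127 in OA (6.43e-04), and Per1, a clock gene, 2023 ± 130 and 1678 ± 128 in the same order (0.0142). Against MDI only Ddit4 passed in OA_T0, where MDI averaged 1665 ± 75.1 (0.0320; 2 higher and 0 lower at an unadjusted p below 0.05), and it was lost without MDI library 1 (0.117), MDI library 2 (0.163), OA_T0 library 1 (0.184) or OA_T0 library 2 (0.0501). In OA vs MDI Fkbp5 was lost without MDI library 1 (0.0910), MDI library 2 (0.0762), OA library 1 (0.0686) or OA library 3 (0.0811), and Tsc22d3 without MDI library 2 (0.0711), MDI library 3 (0.0570) or OA library 2 (0.0731). In OA_T0 vs OA the higher genes numbered 2 without OA library 2 (0.0597 for Tsc22d3, 0.0586 for Per1) or OA_T0 library 1 (0.0528 and 0.0850). Per1 was also lost without OA library 1 (0.0823), and the 1 lower gene, Fkbp5, without OA library 1, OA library 3, OA_T0 library 1 or OA_T0 library 3.

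Without both libraries low in ribosomal RNA, OA library 1 and OA_T0 library 3, several list counts in OA_T0 vs OA were smaller. Lower chemokines then numbered 0, higher cytokines 1 (Lif), lower receptors 1, lower signalling genes 1, and feedback genes 0 in either direction. Fkbp5, the lower glucocorticoid-induced gene, was not called either. In OA vs MDI 1 chemokine was then lower, and Fkbp5 (0.0634) was no longer higher. In OA_T0 vs MDI 2 chemokines were lower, and Ddit4 (0.0572) was not called.

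The list counts also moved with the filter and the scaling. With no filter on low values, OA vs MDI had 1 lower cytokine (Lif 0.0630), 1 lower receptor (Tlr3 0.0532, Osmr 0.120), 2 lower targets and, among glucocorticoid-induced genes, 0 higher and 1 lower (Fkbp5 0.0657, Tsc22d3 0.0672; limma adjusted p). OA_T0 vs OA had 2 lower receptors (Tlr2 0.0732), 1 lower signalling gene (Myd88 0.0993), 0 feedback genes in either direction (Zfp36 0.0695, Tnip1 0.111, Birc3 0.128) and 0 lower glucocorticoid-induced genes, and Clcf1 (0.0625) was lost. OA_T0 vs MDI had 0 lower signalling genes (Myd88 0.126), 1 lower target (Mmp9 0.116) and 0 higher glucocorticoid-induced genes (Ddit4 0.122). With the filter at a mean of 50, Ccl11 was not tested and 0 chemokines were lower in OA_T0 vs OA.

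After quantile normalisation OA_T0 vs OA had 4 lower feedback genes and 1 higher signalling gene, and Clcf1 was lost (0.0614). OA_T0 vs MDI then had 1 lower cytokine and 1 higher target. With equal totals, Myd88 was lost in OA_T0 vs OA (0.0719) and in OA_T0 vs MDI (0.0529), as were Osmr in OA vs MDI (0.0730), Clcf1 in OA_T0 vs OA (0.0505) and Ddit4 in OA_T0 vs MDI (0.0704), where 1 cytokine was lower. With only the groups compared in the fit, OA_T0 vs OA had 3 lower receptors (Tlr2 0.0515) and 1 lower signalling gene (Myd88 0.0696), and OA vs MDI had 1 lower chemokine.

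**Figure D4:**
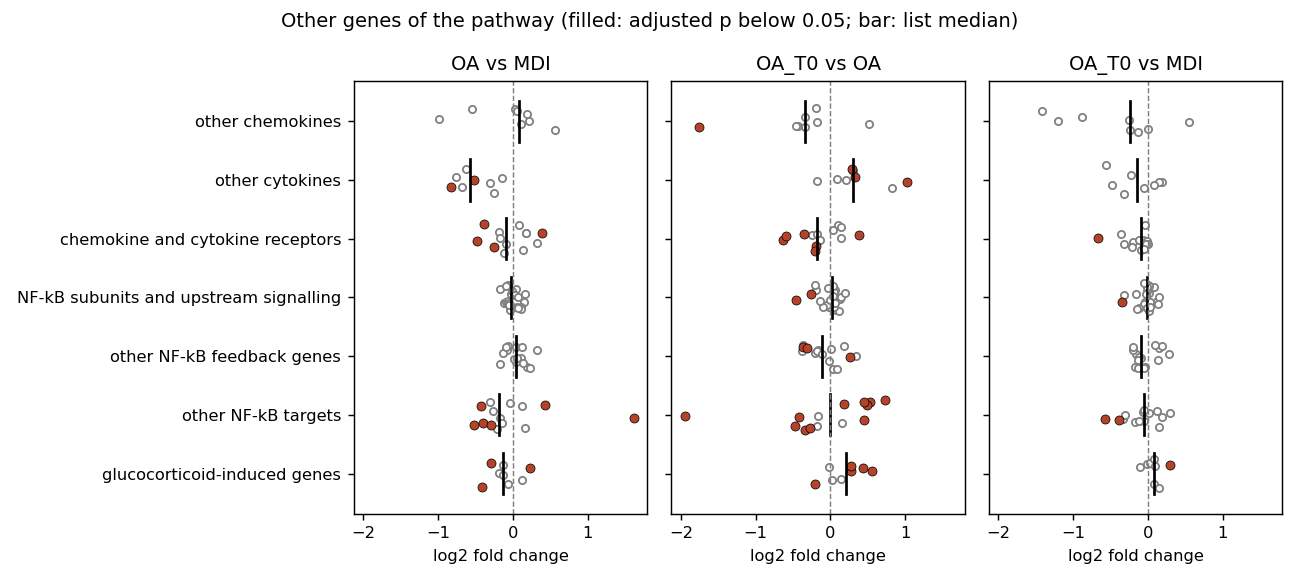
Log2 fold changes of tested genes on the 7 pathway lists in the 3 comparisons; filled points had an adjusted p below 0.05 and bars mark list medians. Of the 22 NF-kB subunits and signalling genes 0 are filled in OA vs MDI. Of the 14 other NF-kB targets 11 are filled in OA_T0 vs OA, 6 higher and 5 lower, where 15.1% of all tested genes were called.

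Genes with the most similar pattern were found by Pearson correlation of log2 values over the 9 libraries, as a description. These r values are the highest of all tested genes, and the 9 points share libraries, normalisation and treatment. Nearest to Csf1 were Sgk1 (r = 0.994) and Zyx (0.993), and nearest to Cxcl12 were Sspn (0.993) and St3gal2 (0.986). Nfkbia was closest to Tbc1d23 (0.989) and Tmem176a (0.988), and Il6 to Rgs2 (0.961) and Vegfa (0.952). Ccl7 was closest to Asb8 (0.964) and Rgs4 (0.950), Tnfaip3 to Siae (0.954) and Gm37677 (0.935), and Cxcl5 to Gm10800 (0.947) and Rpl19-ps10 (0.924). Ccl2 was closest to Trim21 (0.937) and Gm12185 (0.929), and Cxcl1 to Cnst (0.924) and Ttc37 (0.906). Among the members themselves r was 0.905 between Il6 and Cxcl1, 0.902 between Nfkbia and Cxcl12, 0.804 between Ccl2 and Ccl7 and -0.911 between Il6 and Cxcl12. Il6 and Csf1 correlated at 0.765, and Nfkbia and Tnfaip3 at 0.733. With Nfkbia, r was -0.873 for Il6, -0.811 for Csf1, -0.801 for Cxcl1, -0.185 for Cxcl5, 0.176 for Ccl2 and 0.691 for Ccl7. With Tnfaip3, it was -0.813 for Cxcl1, -0.715 for Il6, -0.687 for Csf1 and -0.031 for Cxcl5. Ccl2, Cxcl12 and Ccl7 correlated with Tnfaip3 at 0.427, 0.571 and 0.698.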

How the data were processed

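Poly(A) RNA of 9 libraries (3 per group) was sequenced from strand-specific libraries, per the labels' protocols. The deposited values were treated as a signal per gene: counts named as normalised by the authors, which are not whole. That each library was divided by 1 factor was inferred from low values piled up on multiples of 1 step per library. The submitters' processing notes name CASAVA 1.8.2, TopHat, HTSeq, DESeq2 and the build mm9, with no role or order; the annotation is not given in the sources used here. In each library the commonest low value was taken as the worth of 1 fragment, and the total divided by it as the depth. Between 5 and 50 steps only 62.3% to 68.8% of values were whole within 0.05 of a step, so reads were not recovered and no count test was run.

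Values were taken as log2(value + 1), which understates changes of low genes, and genes averaging at least 10 over the 9 libraries were tested with limma 3.58.1 in R 4.3.3 (intensity trend, 1 spread for 3 groups, two-sided). Benjamini-Hochberg adjustment ran over all 15002 genes within each comparison, with a threshold of 0.05. The procedure was also run on simulated data as a check of the code. That check required recovery of large changes only, at a fixed spread, so it does not speak for the smaller changes of the members. The members and lists were chosen with earlier results of these data known. Named from the lists were up to 4 passing genes per comparison with the smallest adjusted p, and for each member its 2 most correlated genes. Of the genes this rule names, 1 is not reported here. Genes named as listed at 0 or near it were chosen after their values were seen, as were the receptors of the members. Exon lengths came from GENCODE M21 and promoters from RefSeq, both on a later build than the files', so they served for length and sequence only; reads shared between related genes cannot be separated. Each library was left out in turn, and both libraries low in ribosomal RNA together. Other alternatives changed the pseudocount (0.5 or 5), the filter (none, or a mean of 50), the scaling (quantiles or equal totals), the groups in the fit, the variance estimate (robust) or added the replicate number as a block.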

Additional observations from a re-analysis of the deposited data

How the results depend on the processing

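Single-gene results of the 9 members kept their direction and their side of the threshold in 473 values under the alternatives; 33 lost their call, 5 gained one and 2 reversed, both far from passing. These were Cxcl12 in OA_T0 vs MDI, at -0.020 without MDI replicate 1 (leave-one-out range -0.020 to 0.16), and Nfkbia in OA_T0 vs MDI, at 0.083 without MDI replicate 3 (range -0.12 to 0.083, log2). With no filter, members higher and lower in OA vs MDI numbered 0 and 1, and those lower in OA_T0 vs MDI 0. Over all genes it gave 233 higher and 234 lower in OA vs MDI, against 514 and 504. It gave 620 lower in OA_T0 vs OA, against 1026. For OA_T0 vs MDI it gave 72 higher and 38 lower, against 188 and 204. Quantile normalisation gave 2 members lower in OA_T0 vs MDI. Robust variance gave 1 member lower in OA vs MDI and 132 genes lower in OA_T0 vs MDI. Without OA replicate 1 and OA_T0 replicate 3, 1 member was lower in OA_T0 vs OA, with 524 genes higher and 402 lower, against 1240 and 1026. The cause of these shifts was not tested.

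With 1 library left out, members higher and lower ranged from 0 to 2 and 1 to 2 in OA vs MDI, from 2 to 3 (higher) and 1 to 4 (lower) in OA_T0 vs OA, and from 0 to 0 (higher) and 0 to 2 (lower) in OA_T0 vs MDI. For all genes, OA vs MDI gave 211 to 658 higher and 155 to 639 lower. OA_T0 vs OA gave 580 to 1443 higher and 474 to 1239 lower, and OA_T0 vs MDI gave 66 to 284 higher and 44 to 247 lower. 

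Whether replicate numbers pair the samples could not be settled. Deviations of same-numbered libraries from their group means correlated at -0.26 to 0.26, and 1 of 9 pairs exceeded 0.1. Differently numbered libraries spanned a like range, -0.23 to 0.25, and with 3 libraries per group a shared batch could be missed. With the replicate block, members higher and lower still numbered 2 and 2, 3 and 3, and 0 and 1 in the 3 comparisons, and genes called 433 and 417, 1095 and 916, and 156 and 183. Among list genes named, the block ended the calls of Myd88 (adjusted p = 0.0521) and Birc3 (0.0688) in OA_T0 vs OA, leaving 1 lower gene in each list, and gave 1 lower chemokine in OA_T0 vs MDI, against 0. Tnfaip3 and Il6 had the fewest fragments of the members. For Il6, counting alone would give a coefficient of variation of 5.19% in OA_T0, 6.97% in OA and 4.81% in MDI. Observed values were 24.0%, 22.4% and 15.0% in the same order. For Tnfaip3, counting would give 7.83%, 6.66% and 6.20%, against 20.4%, 6.54% and 11.9% observed. The part of depth in their results was not tested.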
